A study of Mus musculus with 4 samples.

Results

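The matricellular genes Postn, Tnc, Cthrc1, Thbs1, Thbs2, Thbs4 and Sparc were followed in single cells of the mouse pancreas after acute pancreatitis. They were chosen by symbol as a list of 7 genes out of the 31053 in the deposited gene annotation, and all 7 were found in every library. Cells came from wild-type C57BL/6 mice treated with caerulein (C2D and C6W) or saline (S2D and S6W), and the pancreas was taken after 2 days (C2D and S2D) or 6 weeks (C6W and S6W) of recovery. Caerulein, an analogue of cholecystokinin, drives acinar cells past their normal secretion and thereby causes acute pancreatitis. Whole-pancreas suspensions were stained with DAPI, the DAPI-negative cells were sorted, and each group was run as 1 library on the 10x Genomics 3' assay. The number of animals behind a library is not given in the sources used here.

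Matricellular proteins sit in the extracellular matrix without forming its main scaffold, and act on cells through integrins, CD36, CD47 and syndecans or by binding growth factors and collagen. Several are kept low in resting adult tissue and are made by activated fibroblasts during wound healing and fibrosis. In the pancreas such fibroblasts, including stellate cells, lay down provisional matrix around damaged acini.

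The libraries held 5433 (C2D), 5316 (S2D), 4195 (C6W) and 2623 (S6W) barcodes and 71547194, 36914373, 33788935 and 29145886 unique molecular identifiers (UMIs, each a captured RNA molecule) in the same order. After filtering, 4637, 3308, 2741 and 2017 cells were analysed. Pairs of libraries shared 3 to 22 barcodes. Clusters were named from marker genes that do not include the 7, and the 7 were left out of the genes used for clustering. Fibroblast-like cells numbered 586 in C2D, 685 in S2D, 1110 in C6W and 741 in S6W, and all 8 fibroblast markers were detected in each library. Their median depth was 22576.5 UMIs per cell in C2D, against 10814 in S2D, and 11626.5 in C6W, against 12954 in S6W. Of the C2D fibroblast-like cells, 539 fell in cluster 7, which held 3 cells of S2D, 12 of C6W and 5 of S6W, whereas most S2D, C6W and S6W cells fell in cluster 33. A cluster so close to 1 library may be that library and not a cell type. Each group was 1 library, so no difference could be tested, and all intervals (exact, 95%) cover counting error only.

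Promoters are shown for 3 genes that were at least 2-fold higher together in C2D fibroblast-like cells, as 250 bases ending just before the transcription start (RefSeq, GRCm38.p6, 5′ to 3′ on the gene's strand). A RefSeq promoter was matched for 5 of the 7 genes. Capitals mark a TATA box (TATAAA) in Postn and Tnc, and a TEAD motif (GGAATG, here on the opposite strand as CATTCC) in Thbs4.
Postn, chr3:54360857-54361106, plus strand: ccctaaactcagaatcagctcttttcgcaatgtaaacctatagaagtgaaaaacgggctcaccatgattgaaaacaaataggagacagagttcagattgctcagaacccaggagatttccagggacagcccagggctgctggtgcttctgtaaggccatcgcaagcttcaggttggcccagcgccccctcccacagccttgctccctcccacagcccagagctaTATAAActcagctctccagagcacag
Tnc, chr4:64047016-64047265, minus strand: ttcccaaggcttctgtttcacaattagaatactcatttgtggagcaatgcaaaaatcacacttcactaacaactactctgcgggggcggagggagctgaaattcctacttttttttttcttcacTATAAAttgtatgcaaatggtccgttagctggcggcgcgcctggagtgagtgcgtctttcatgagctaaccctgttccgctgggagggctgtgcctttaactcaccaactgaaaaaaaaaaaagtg
Thbs4, chr13:92794819-92795068, minus strand: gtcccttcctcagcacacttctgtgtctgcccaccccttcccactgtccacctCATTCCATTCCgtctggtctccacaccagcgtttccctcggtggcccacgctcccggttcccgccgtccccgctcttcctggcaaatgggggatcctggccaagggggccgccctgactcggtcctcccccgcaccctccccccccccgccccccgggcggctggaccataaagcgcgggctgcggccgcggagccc
The TATAAA of Postn began 26 bases before the start shown, and that of Tnc 126 bases before it. RefSeq gives Postn and Tnc a further start each, not shown: the promoter of the other Postn start held no searched motif, and the TATAAA lay 205 bases before the other Tnc start. In Thbs4 the 2 CATTCC matches began 197 and 192 bases before the start and overlapped by their shared base. Both strands were searched for these motifs, for the AP-1 motif (TGANTCA) and for the CArG box of serum response factor. Among 32851 promoters of the same length, the TATA box was present in 12.4%, the TEAD motif in 12.6%, the AP-1 motif in 6.75% and a CArG box in 1.47%. No searched motif was in all of the 3 promoters shown. The matched promoters of Thbs2 and Sparc, which were also higher in C2D, are not shown. That of Thbs2 held a TATAAA match, on the opposite strand, 126 bases before its start, and that of Sparc held no searched motif. These matches describe letters, not sites.

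In fibroblast-like cells 2 days after caerulein, 6 of the 7 genes (Postn, Tnc, Cthrc1, Thbs2, Thbs4 and Sparc) were at least 2-fold higher in C2D than in S2D, and none was at least 2-fold lower. Of 12586 genes compared in the same cells (at least 20 UMIs over both libraries), 12.3% passed the same 2-fold limit upwards and 8.26% downwards. The exception was Thbs1, which was within 2-fold of saline at both times. At 6 weeks, 4 of the 7 (Postn, Tnc, Cthrc1 and Thbs4) were at least 2-fold higher in C6W than in S6W and none lower, where 2.03% of 12315 genes were higher and 1.65% lower. Without cluster 7, this 6-week count was 2 (Postn and Cthrc1). The 7 genes were chosen with earlier results of these data known. The counts at both times therefore describe these genes and are no independent result.

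**Figure D1:**
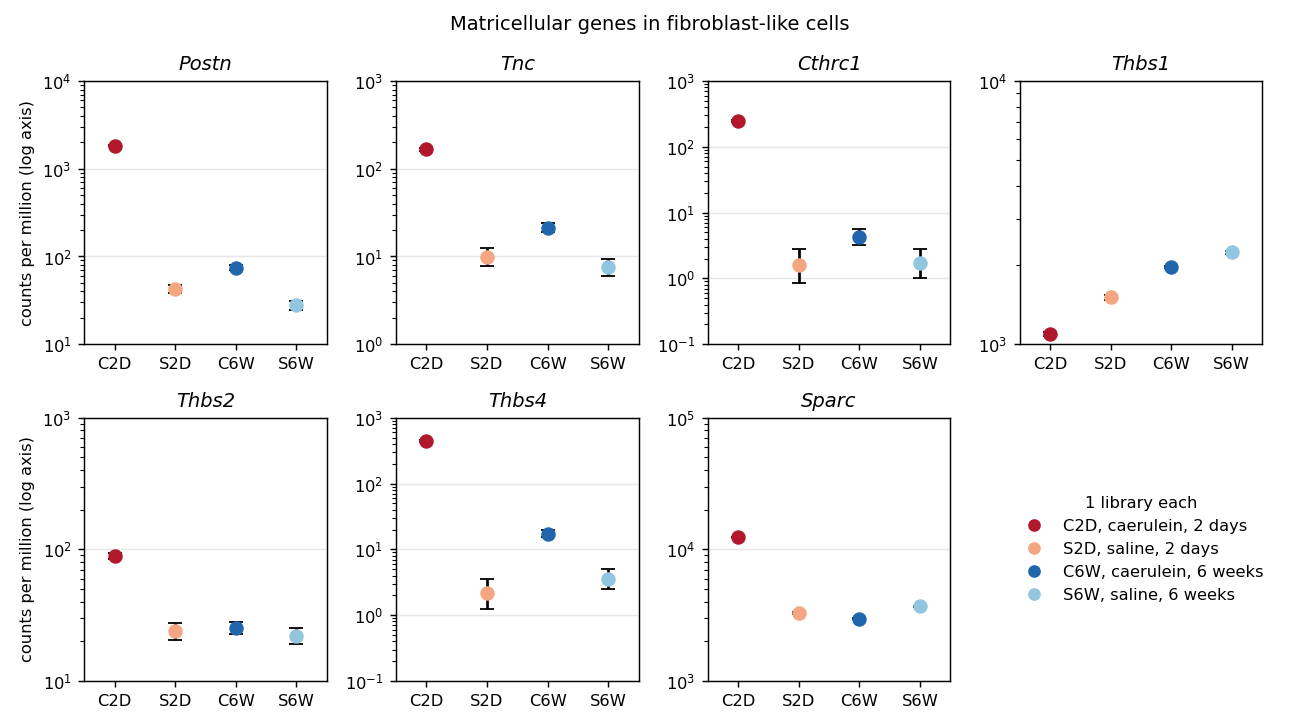
Level of each gene in fibroblast-like cells of the 4 libraries, in CPM of those cells on a log axis, with exact 95% Poisson intervals (many are smaller than the point). For 6 genes the C2D library stands above the other libraries, while Thbs1 is lowest in C2D, at 1091.

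Periostin (Postn; chr3:54361109-54391037, plus strand, GRCm38) is a secreted protein that binds integrins and aids collagen cross-linking. It stood at 1819 CPM (UMIs of the gene per 1000000 UMIs of the class) in C2D fibroblast-like cells, against 42.5 CPM in S2D, and at 74.9 CPM in C6W, against 27.7 CPM in S6W. C2D was far above the other libraries, and the C6W interval (70.3 to 79.7 CPM) did not overlap those of S2D (38.0 to 47.5) and S6W (24.5 to 31.2). The log2 ratio, scaled by TMM, was 5.53 (5.37 to 5.70) for C2D over S2D and 1.56 (1.37 to 1.76) for C6W over S6W. A Postn UMI was found in 94.5% of C2D cells, against 7.88% of S2D cells. After each cell was thinned to 1000 UMIs, these shares were 62.2% in C2D and 2.19% in S2D, and 4.87% in C6W against 1.35% in S6W. In B-like and T-like cells, which should lack the gene and whose T-like part had a median of 5722 UMIs in C2D and 6072.5 in S2D, the unthinned share was 3.31% in C2D and 0.214% in S2D.

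Tenascin-C (Tnc; chr4:63959785-64047015, minus strand) is a large hexameric glycoprotein that loosens cell adhesion and is a ligand of integrins. It stood at 167 CPM in C2D, against 9.86 CPM in S2D, and at 21.3 CPM in C6W, against 7.55 CPM in S6W. C2D was again well above the rest, and C6W above both saline libraries. The log2 ratio was 4.20 (3.86 to 4.55) at 2 days and 1.62 (1.24 to 2.01) at 6 weeks. Tnc was the most unevenly spread of the 7 in C2D: 31.7% of cells had a UMI, the median cell had 0, and the 59 cells with the most Tnc held 89.8% of its 2291 UMIs.

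Cthrc1 (chr15:39076932-39087121, plus strand) is a secreted protein with a collagen triple helix repeat, made by fibroblasts in injured tissue. It stood at 249 CPM in C2D, against 1.62 CPM (12 UMIs) in S2D, and at 4.28 CPM (57 UMIs) in C6W, against 1.74 CPM (17 UMIs) in S6W. C2D was set apart from the 3 other libraries, all of which were low. The log2 ratio was 7.38 (6.57 to 8.33) at 2 days and 1.43 (0.63 to 2.30) at 6 weeks. With 12 saline UMIs, 7 of them in 1 cell, the size of the 2-day ratio is loose.

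Thrombospondins are multimeric glycoproteins that bind calcium, matrix and cell-surface receptors. Thbs2 (chr17:14665500-14694235, minus strand), a regulator of collagen fibril assembly, stood at 89.3 CPM in C2D, against 23.8 CPM in S2D, and at 25.2 CPM in C6W, against 22.0 CPM in S6W. Only C2D stood out, and the intervals of the other libraries overlapped. The log2 ratio was 2.02 (1.79 to 2.26) at 2 days and 0.32 (0.06 to 0.57) at 6 weeks.

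Thbs4 (chr13:92751590-92794818, minus strand), a pentameric thrombospondin of tendon and muscle matrix, stood at 444 CPM in C2D, against 2.16 CPM in S2D, and at 17.3 CPM in C6W, against 3.57 CPM in S6W. C2D was the high library and C6W came next, but few cells carried the gene outside C2D. The log2 ratio was 7.80 (7.10 to 8.60) at 2 days and 2.40 (1.88 to 2.96) at 6 weeks, and 15 of the 16 S2D UMIs lay in 1 cell. In C2D itself a UMI was found in 48.6% of cells, but the median cell had 0. The 59 cells with the most Thbs4 held 67.7% of its C2D UMIs. After thinning, 117 C2D cells had a Thbs4 UMI and 468 had none.

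Thbs1 (chr2:118111876-118127133, plus strand), which encodes the TGF-beta-activating thrombospondin-1, was the only one of the 7 that was not higher in C2D fibroblast-like cells. It stood at 1091 CPM in C2D, against 1505 CPM in S2D, and at 1967 CPM in C6W, against 2237 CPM in S6W. Both 2-day libraries were below both 6-week libraries, with C2D lowest. The log2 ratio was -0.35 (-0.39 to -0.32) at 2 days and -0.06 (-0.09 to -0.04) at 6 weeks. In thinned cells a Thbs1 UMI was found in 54.5% of C2D cells, against 58.9% of S2D cells.

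Sparc (chr11:55394500-55423183, minus strand), or osteonectin, is a collagen-binding protein that fibroblasts make constitutively. It stood at 12401 CPM in C2D, against 3293 CPM in S2D, and at 2972 CPM in C6W, against 3698 CPM in S6W. C2D was high and the other libraries lay close together. The log2 ratio was 2.03 (2.01 to 2.05) at 2 days and -0.19 (-0.21 to -0.17) at 6 weeks. Set against the summed UMIs of the collagen genes Col1a1, Col1a2 and Col3a1 in the same cells, Sparc gave 38.0 UMIs per 100 collagen UMIs in C2D, against 57.4 in S2D, so its level rose less than that of these collagens. On the same measure Postn gave 5.57 in C2D, against 0.74 in S2D, and Thbs1 gave 3.34 in C2D, against 26.2 in S2D.

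**Figure D2:**
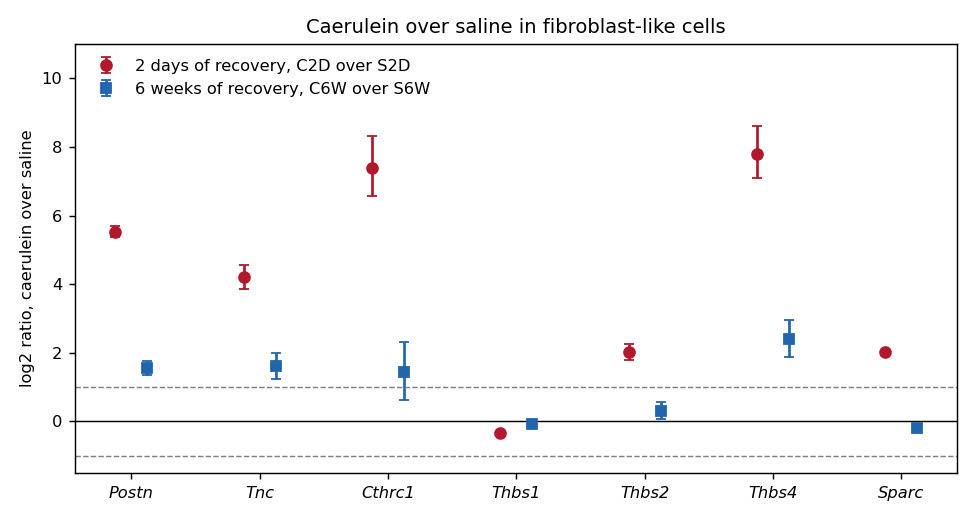
Log2 ratio of caerulein over saline in fibroblast-like cells for each gene, at 2 days (circles) and 6 weeks (squares), with exact 95% intervals for counting error; dashed lines mark 2-fold. Thbs4 and Cthrc1 have the highest 2-day ratios, 7.80 and 7.38, and Thbs1 lies below 0 at both times.

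From 2 days to 6 weeks after caerulein, the same 6 genes (Postn, Tnc, Cthrc1, Thbs2, Thbs4 and Sparc) were at least 2-fold lower in C6W than in C2D, where 11.3% of 12807 genes were lower and 7.59% higher. The log2 ratio of C6W over C2D was -5.83 for Cthrc1, -4.66 for Thbs4, -4.58 for Postn, -2.95 for Tnc, -2.03 for Sparc and -1.80 for Thbs2, and 0.88 for Thbs1. This comparison shares its libraries with those above. Between the saline libraries none of the 7 was 2-fold apart (1.64% of 12039 genes were higher and 2.05% lower in S6W). The widest of these saline ratios were 0.72 (-0.18 to 1.67) for Thbs4, -0.63 (-0.87 to -0.39) for Postn and 0.56 (0.53 to 0.60) for Thbs1. With S2D in place of S6W as the control of C6W, the Postn ratio was 0.92, just under 2-fold.

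Fibroblast-like cells formed 5 clusters in which the genes were distributed differently. Cluster 7 was led by Col1a1, Col3a1, Mgp and Cilp, and also had the contractile genes Acta2 (212 CPM over all libraries) and Tagln (304 CPM). In C2D it held 539 of the 586 fibroblast-like cells and 12967681 of their 13702148 UMIs, so a gene spread evenly would also give a high share. It held 99.1% of the fibroblast-like Postn UMIs of C2D, 98.8% of Tnc, 98.9% of Cthrc1 and 99.6% of Thbs4. For Thbs1, Thbs2 and Sparc the shares were 98.1%, 98.3% and 96.5%. Cluster 19 was led by Ptn, cluster 23 by the adventitial marker Pi16, cluster 33 by Smoc2 and Ccl11, and cluster 9 by Ccl11, Has1 and Tnfaip6. The 29 C2D cells of cluster 19 also stood above the 29 S2D cells for Postn (204 CPM), Cthrc1 (31.7 CPM) and Thbs4 (49.5 CPM). None of these genes had a UMI among 345611 in S2D (exact upper limit 10.7 CPM). Sparc was also higher there (7986 CPM in C2D, against 4045 CPM in S2D). The 16 Cthrc1 UMIs lay in 1 of the 29 C2D cells and the 25 Thbs4 UMIs in 4, whereas 23 cells had Postn. For Tnc the order was the other way in these cells, with 53.4 CPM in C2D and 113 CPM in S2D.

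**Figure D3:**
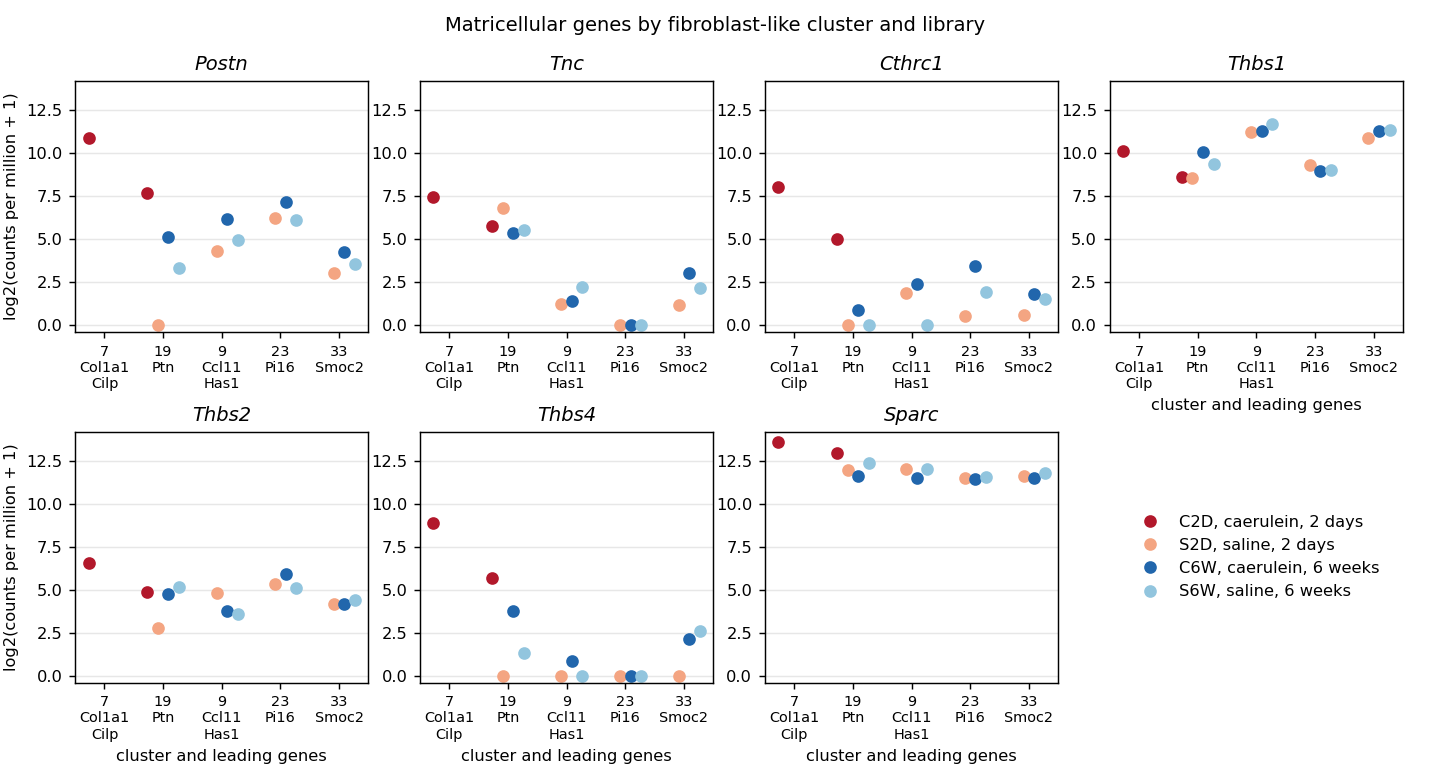
Level of each gene, as log2(CPM + 1), in the 5 fibroblast-like clusters, for libraries with at least 20 cells in a cluster; within a cluster the libraries run C2D, S2D, C6W, S6W. Cluster 7 has C2D points only and the highest Postn, Cthrc1, Thbs4 and Sparc, while Thbs1 is highest in clusters 9 and 33.

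Outside cluster 7 the genes marked different cells of the resting and recovered pancreas. Postn was highest in the Pi16 cluster 23, with 144 CPM in C6W, against 67.0 CPM in S6W, and 75.3 CPM in S2D. Tnc had no UMI in that cluster in C6W, S6W or S2D, with exact upper limits of 1.38, 2.60 and 1.69 CPM in that order. It was instead highest in the Ptn cluster 19, with 39.9 CPM in C6W, against 45.7 CPM in S6W, and 113 CPM in S2D. Thbs1 was high in clusters 9 (2501 CPM in C6W, against 3295 CPM in S6W) and 33 (2504 CPM in C6W, against 2606 CPM in S6W), and lower in cluster 23 (508 CPM in C6W, against 521 CPM in S6W). Over clusters 9, 19, 23 and 33 Sparc ran from 2798 to 3206 CPM in C6W, against 3009 (cluster 23) to 5234 CPM (cluster 19) in S6W, and from 2863 to 4165 CPM in S2D.

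The 6-week excess of Postn was seen within each of these clusters. The log2 ratio of C6W over S6W, scaled by the UMIs of the cluster, was 1.89 (0.65 to 3.42) in cluster 19, 1.21 (0.67 to 1.80) in cluster 9, 1.11 (0.78 to 1.45) in cluster 23 and 0.77 (0.34 to 1.22) in cluster 33. By share of cells with a Postn UMI, cluster 19 had 8 of 92 in C6W (8.70%), against 3 of 46 in S6W (6.52%). Cluster 9 had 20.8%, against 13.0%, and the intervals overlapped in both clusters. They did not in cluster 23 (43.75%, against 24.4%) or cluster 33 (9.44%, against 3.36%). Cthrc1 had 26 UMIs in cluster 23 of C6W, against 4 in S6W, a log2 ratio of 1.78 (0.26 to 3.76). For both genes more cells outside cluster 7 had a UMI in C6W: 183 of 1098 for Postn, against 51 of 736 in S6W, and 43 of 1098 for Cthrc1, against 14 of 736 in S6W. With cluster 7 left out, the ratio over all other fibroblast-like cells was 1.51 for Postn and 1.45 for Cthrc1.

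For Tnc and Thbs4 the 6-week ratio rested on few cells. The 12 C6W cells of cluster 7 held 184 of the 283 Tnc UMIs and 190 of the 230 Thbs4 UMIs of C6W fibroblast-like cells, and 1 of these cells held 174 Thbs4 UMIs. In S6W, 1 cell held 31 of the 35 Thbs4 UMIs. With cluster 7 left out, the log2 ratio was 0.49 for Tnc, and for Thbs4 it was -0.07, with the sign turned. With the cell richest in the gene left out of each library, the ratio was 1.29 for Tnc and 3.49 for Thbs4. Without fibroblast-like cells that carried a UMI of C1qa, C1qb, C1qc or Lyz2, markers of macrophages, the Thbs4 ratio was 0.22. None of the 20 cells of cluster 7 outside C2D had a barcode shared with another library.

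Single C2D cells carried several of the genes at once. In cells thinned to 1000 UMIs, 3 or more of the 7 were detected in 305 of 585 C2D cells (52.1%), against 17 of 684 S2D cells (2.49%), and in 43 of 1109 C6W cells (3.88%), against 17 of 741 S6W cells (2.29%). No B-like or T-like cell of any library had more than 1. Within C2D, a Postn UMI was found in 90.6% of the 96 cells with Cthrc1 and in 56.6% of the 489 cells without it. Cthrc1 was found in 48.8% of the 43 cells with Tnc and in 13.8% of the 542 without it. By contrast Thbs1 was found in 55.8% of the cells with Tnc and 54.4% of those without. 

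**Figure D4:**
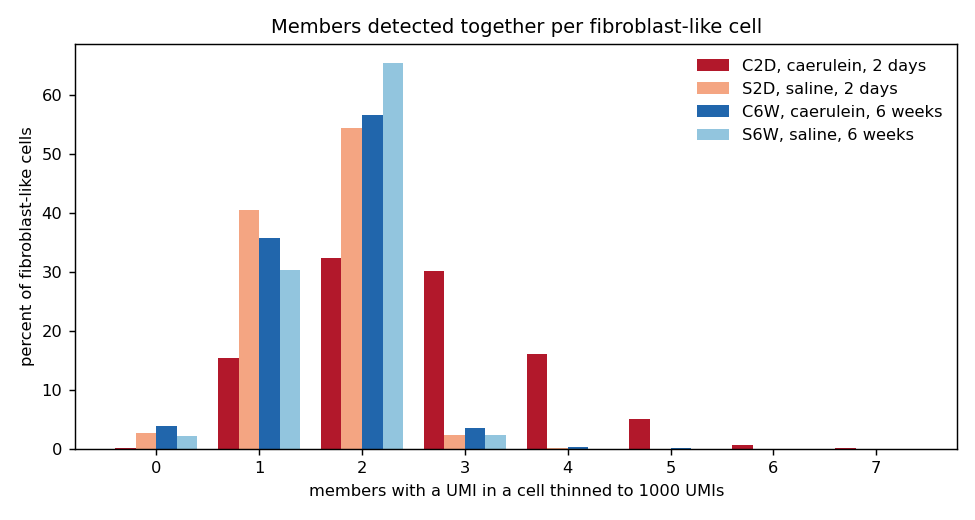
Percent of fibroblast-like cells in each library by the number of the 7 genes detected, in cells thinned to 1000 UMIs. The C2D distribution extends to 7 genes, and 52.1% of C2D cells have 3 or more, against 2.49% in S2D.

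Markers of other cells in the fibroblast-like sums moved with some of these values. The 8 macrophage markers summed to 301 CPM in C2D, against 17.2 CPM in S2D, and 17.4 CPM in C6W, against 24.2 CPM in S6W. The 8 acinar markers summed to 2135 CPM in C2D, against 8395 CPM in S2D, and the 8 mural markers to 181 CPM, against 133 CPM. All of these were detected in both 2-day libraries except the macrophage marker Ms4a7, which was at 0 in S2D. The 5 erythroid markers summed to 226 CPM in C2D, against 0.54 CPM in S2D, where Hbb-bt and Alas2 were at 0, and to 2.33 CPM in C6W, against 82.4 CPM in S6W. The 6 monocyte markers, 4 of them detected in each 2-day library, summed to 924 CPM in C2D, against 379 CPM in S2D. Ly6c2 and Fcnb were at 0 in C2D, and Chil3 and Fcnb in S2D, so this sum need not be RNA of monocytes. The part of acinar, mural, erythroid and monocyte markers in the results was not tested. Leaving out fibroblast-like cells with a macrophage UMI left the 2-day count at 6 of 7.

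Genes related by function were described in the same cells, among those with at least 100 UMIs over both libraries. Of 9896 such genes 9.42% were higher by 2-fold or more in C2D and 5.6% lower. The lists, too, were chosen with earlier results of these data known, so their counts are a description only. Of 13 genes of activated fibroblasts measured, 11 were higher and 0 lower, with a median log2 ratio of 2.52, including the protease Adam12 (5.91), Col11a1 (5.36, 2 UMIs in S2D), Col8a1 (4.87) and Tagln (4.80). Of 18 matrix partners 10 were higher and 1 lower (median 1.21), with Col1a1 at 3.19, the proteoglycan Bgn at 2.95, Col3a1 at 2.55 and Col1a2 at 2.20. Of 16 other matricellular genes 6 were higher and 4 lower (median 0.51). Among these the CCN family parted, with Wisp1 at 5.70 and Wisp2 at 3.62 but Nov at -3.15, and Tgfbi stood at 1.94.

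The receptors and inducers were mixed at 2 days. Of 20 receptors and binding partners 5 were higher and 3 lower (median -0.17), with the syndecan Sdc1 at 2.47, the scavenger receptor Stab1 at 2.08, Ror2 at 1.79 and Sdc4 at -1.45. Of 18 inducers 5 were higher and 2 lower, with Tgfb3 at 3.02, Tgfb1 at 1.86, Pdgfa at 1.25 and Il13ra1 at 1.18. Adventitial fibroblast genes went the other way, with 1 of 8 higher and 6 lower (median -1.99), among them Sema3c at -3.48, Clec3b at -2.41, Ly6c1 at -2.34 and Pi16 at -2.04. Of 6 parenchymal fibroblast genes 0 were higher and 3 lower. At 6 weeks, where 0.658% of 9876 genes were higher and 0.668% lower in C6W, the called genes of all these lists were Spp1 (1.63), Runx1 (1.27) and Col8a1 (1.01), all higher. Spp1 is also a leading gene of the ductal-like clusters 20 and 30. The 8 ductal markers, with Cftr at 0 in both, summed to 47.1 CPM in C6W fibroblast-like cells, against 42.5 CPM in S6W. The part of ductal RNA in the Spp1 ratio was not tested.

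Across the other cell classes, Postn, Tnc, Cthrc1, Thbs2 and Thbs4 were largely fibroblast genes. Fibroblast-like cells held 98.2% of the Postn UMIs of C2D, against 94.9% in S2D, and 96.5% in C6W, against 88.6% in S6W. For Tnc, Thbs2 and Thbs4 the lowest share in any library was 96.1%, and for Cthrc1 it was 85.7%. Mural-like cells, the pericytes and smooth muscle of vessels, were the other class with much Postn, at 828 CPM in 24 C2D cells, against 4.47 CPM in 23 S2D cells, and 16.8 CPM in 18 C6W cells, against 131 CPM in 17 S6W cells. With under 50 cells a library, no ratio was taken for them. B-like and T-like cells, used as the level of free RNA, had 0 UMIs of Tnc, Cthrc1, Thbs2 and Thbs4 in all libraries (3 counts would be 3.47 CPM in C2D and 0.41 CPM in S2D) and 0 to 5.78 CPM of Postn.

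**Figure D5:**
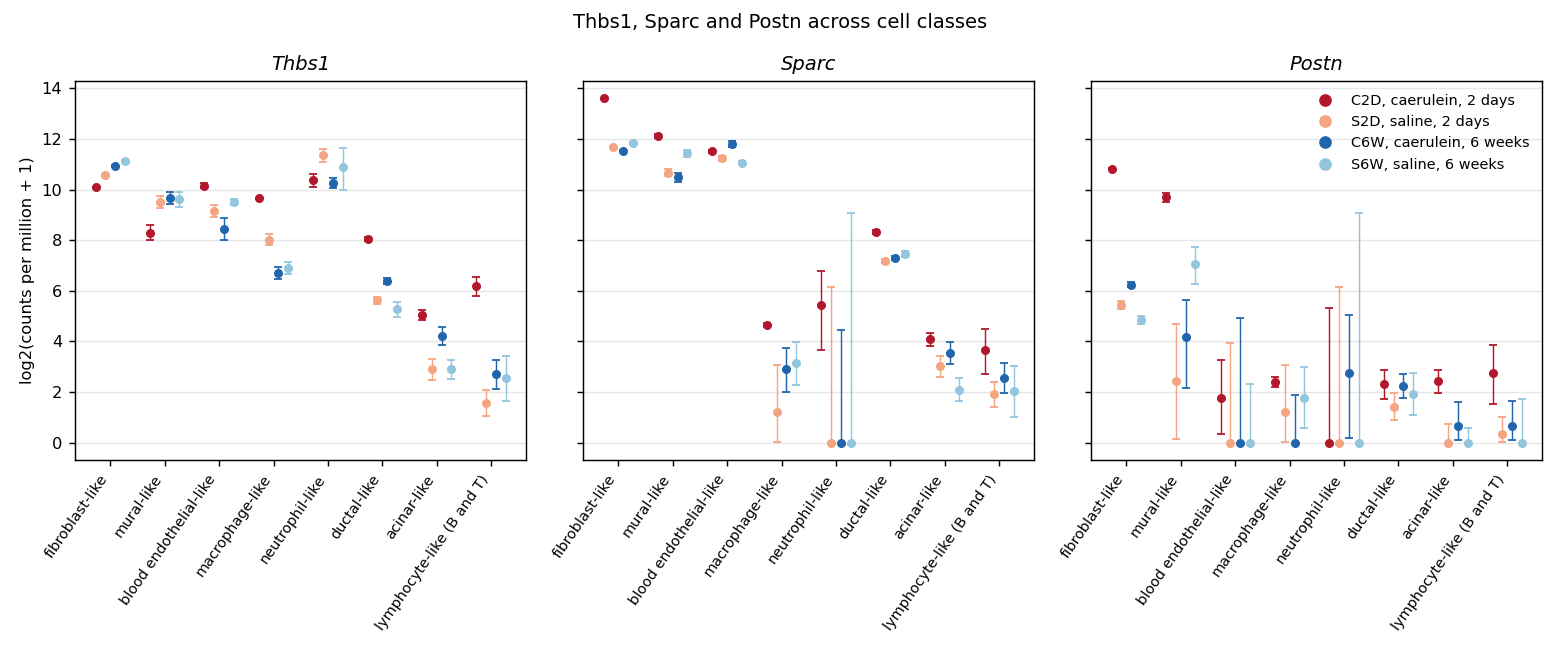
Level of Thbs1, Sparc and Postn, as log2(CPM + 1) with exact 95% Poisson intervals, in 8 cell classes; within a class the libraries run C2D, S2D, C6W, S6W. Thbs1 is high in neutrophil-, endothelial- and C2D macrophage-like cells as well as in fibroblasts, Sparc in stromal and endothelial classes, and Postn in fibroblast- and mural-like cells; the neutrophil-like class has 2 cells in S6W.

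Sparc was shared with other stromal and endothelial cells. In blood endothelial-like cells it stood at 2927 CPM in C2D (105 cells), against 2401 CPM in S2D (48 cells). At 6 weeks it stood there at 3562 CPM in C6W (only 15 cells), against 2145 CPM in S6W (140 cells). In mural-like cells it stood at 4467 CPM in C2D, against 1628 CPM in S2D, and at 1432 CPM in C6W, against 2757 CPM in S6W. In macrophage-like cells it was only 24.1 CPM in C2D, against 1.33 CPM (1 UMI) in S2D, beside 11.6 CPM in C2D B-like and T-like cells.

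Thbs1 had the widest distribution. Macrophage-like cells were 2357 of the C2D cells, against 86 in S2D, and 118 in C6W, against 134 in S6W, so that they held 58.3% of all Thbs1 UMIs in C2D, against 1.59% in S2D, while fibroblast-like cells held 32.3% in C2D, against 91.0% in S2D. The level in macrophage-like cells was 804 CPM in C2D, against 260 CPM in S2D, and 103 CPM in C6W, against 120 CPM in S6W. A Thbs1 UMI was found in 77.6% of C2D macrophage-like cells, against 11.6% in S2D, and in 12.7% in both C6W and S6W. Thinned to 1000 UMIs, these shares were 42.0% in C2D, against 5.95% in S2D, and 6.09% in C6W, against 3.85% in S6W. In thinned B-like and T-like cells it was 2.48% in C2D, against 0.216% in S2D, and their Thbs1 level was 71.6 CPM in C2D, against 1.93 CPM in S2D, and 5.52 CPM in C6W, against 4.95 CPM in S6W. The T-like part of these had 62 Thbs1 UMIs in C2D, against 2 in S2D, a log2 ratio of 5.59 (3.67 to 8.66). Dendritic-like cells went the other way, with 10.4 CPM (47 UMIs) in C2D, against 41.7 CPM (42 UMIs) in S2D, a log2 ratio of -1.83 (-2.46 to -1.19). In C2D, NK-like cells had 8.20 CPM (1.69 to 24.0) and T-like cells 79.6 CPM (61.0 to 102). These classes differ, so the level of free Thbs1 RNA in C2D is not settled by B-like and T-like cells, and the source of their Thbs1 was not tested.

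C2D macrophage-like cells were set apart from the rest by how many cells carried Thbs1. The log2 ratio of C2D over S2D was 1.70 (1.49 to 1.91), and 6 S2D cells held 186 of the 195 S2D UMIs. The ratio depended on the processing: it ranged from -0.04, without clusters of 1 library, to 7.12, with the 7 genes kept in the clustering. The first of these settings leaves out clusters 1 and 3, which held 1146 and 856 of the C2D macrophage-like cells, while 60 of the 86 S2D cells were in cluster 2. Clusters 1 and 3, which were almost all C2D and led by C1qa, C1qb, C1qc, Lyz2 and Trem2, had Thbs1 at 906 and 866 CPM, against 275 CPM in the C2D cells of cluster 2, led by class II genes, where the S2D cells had 354 CPM. At 6 weeks the ratio was -0.24 (-0.58 to 0.11). Markers of other cells also differed in the macrophage-like sums. All 8 acinar markers were detected in both and summed to 4127 CPM in C2D, against 23835 CPM in S2D. The 8 dendritic markers summed to 26.8 CPM in C2D, against 157 CPM in S2D, and the 6 B cell markers to 26.7 CPM in C2D, with Fcmr at 0, against 152 CPM in S2D. Megakaryocyte or platelet markers summed to 773 CPM in C2D, with Gp9 and Gp1bb at 0, against 672 CPM in S2D. There 2 of 6 were detected, with Ppbp, Gp9, Gp1bb and Treml1 at 0. Pf4, also of this list, is a leading gene of the macrophage-like clusters 3 and 32. Neutrophil markers summed to 85.0 CPM in C2D, with Ly6g at 0, against 74.5 CPM in S2D. There 2 of 7 were detected, with S100a8, S100a9, Retnlg, Cxcr2 and Ly6g at 0. The part of all these markers in the Thbs1 ratio was not tested.

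In macrophage-like cells at 2 days, Thbs1, Sparc and Postn were the 3 genes that could be measured, and all 3 were called higher, where 12.1% of 10683 genes were higher and 11.3% lower. For Sparc (808 UMIs in C2D) and Postn (142 UMIs in C2D) the call rests on 1 UMI in S2D. The Postn level, 4.23 CPM in C2D, was below that of C2D B-like and T-like cells (5.78 CPM, from 5 UMIs). Whether it is free RNA was not tested. The Sparc ratio changed sign, to -0.53, when doublets were kept. Tnc, Cthrc1 and Thbs4 had 0 UMIs in S2D and 27, 26 and 22 in C2D, and their bounds against 3 counts fell short of 2-fold, while Thbs2, with 8 UMIs in C2D, was under the minimum of 20. At 6 weeks only Thbs1 could be measured and it was not called, where 5.87% of 7563 genes were higher and 6.68% lower. Of the related genes in C2D macrophage-like cells, the matricellular Spp1 (osteopontin) stood at 1693 CPM, against 113 CPM in S2D, and Ecm1 at 218 CPM, against 43.9 CPM. The thrombospondin receptor Cd36 stood at 39.0 CPM in C2D, against 165 CPM in S2D, and the integrin subunit Itga6 at 113 CPM, against 10.6 CPM.

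In ductal-like cells 3 of the 7 genes could be measured at 2 days (Thbs1, Sparc and Postn) and all 3 were at least 2-fold higher, where 8.43% of 12071 genes were higher and 8.52% lower, and 1 of 3 at 6 weeks, where 2.46% of 11515 were higher and 0.738% lower. The class sat in different clusters by library: 163 of the 179 C2D cells were in cluster 20, with 6 of the S2D cells, while 485 and 280 of the 797 S2D cells were in clusters 30 and 31. Thbs1 stood at 265 CPM in C2D, against 48.1 CPM in S2D, a log2 ratio of 2.56 (2.38 to 2.74), and at 82.4 CPM in C6W, against 37.4 CPM in S6W, a ratio of 1.15 (0.83 to 1.48). This 6-week ratio was under 2-fold with doublets kept (0.50), with doublets by expected rate (0.99) and in thinned cells (0.92). Sparc stood at 318 CPM in C2D, against 144 CPM in S2D, a ratio of 1.24 (1.12 to 1.36), and at 156 CPM in C6W, against 175 CPM in S6W. Postn was the other call, from 17 UMIs in C2D and 12 in S2D. Its 3.99 CPM in C2D was below the 5.78 CPM of C2D B-like and T-like cells, which came from 5 UMIs. In S2D its 1.67 CPM was above B-like (0.33 CPM) and T-like (0 CPM) cells. The same held in C6W (3.73 CPM, against 0.88 and 0) and S6W (2.78 CPM, against 0 and 0), with overlapping intervals. Whether ductal-like Postn is free RNA was not tested. The C2D ductal-like cells were also deeper, with a median of 20434 UMIs, against 8545 in S2D. In cells thinned to 1000 UMIs the 2-day ratio was 1.56 for Thbs1 and 1.57 for Sparc, the 2 genes that could then be measured.

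Acinar-like cells had low counts of the 7 genes. At 2 days 1 of 3 measured was called higher, where 19.8% of 7189 genes were higher and 10.4% lower. It was Postn, with 27 UMIs in C2D and 0 in S2D, which is 2.53-fold with S2D set to 3 counts. The exact lower limit of its log2 ratio was 0.94, just under 2-fold. The Postn level, 4.39 CPM in C2D, was no higher than in C2D B-like and T-like cells, where it came from 5 UMIs. Whether it is free RNA was not tested. All 465 C2D acinar-like cells were in cluster 4 and all 413 S2D cells in cluster 34. At 6 weeks 1 of 2 measured was called higher (Sparc, 38 UMIs in C6W and 25 in S6W), where 4.3% of 4629 were higher and 5.81% lower. An unnamed cluster with acinar and ductal markers, 307 of whose 349 cells were from C2D, had Thbs1 at 415 CPM in its C2D cells. Neutrophil-like cells, few in number, had Thbs1 at 1314 CPM in C2D, against 2601 CPM in S2D, and 1211 CPM in C6W. Blood endothelial-like cells had it at 1142 CPM in C2D (105 cells), against 568 CPM in S2D (48 cells). At 6 weeks they had it at 348 CPM in C6W (only 15 cells), against 729 CPM in S6W (140 cells).

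Likeness between genes was described by Pearson's r of log2(CPM + 1) over 31 sums of a class in a library, which share libraries and cell types. The genes most like Postn were Mfap4 (0.97), Dio3 (0.93) and Tnc (0.93), and those most like Tnc were Ednra (0.99), AW551984 (0.98) and Prrx2 (0.98). Cthrc1 was most like Thbs4 (0.95), C1qtnf3 (0.94) and Lama1 (0.92), and Thbs4 most like C1qtnf3 (0.97), Tnc (0.96) and Cpz (0.96). Thbs2 was most like Col12a1 (0.98), Adamts8 (0.98) and Lox (0.98), and Sparc most like Cdr2l, Pxdn and Cavin3 (0.97 each). Thbs1 was most like Pros1 (0.94), Vat1 (0.92) and Sash1 (0.92), and its r with the other 6 genes ran from 0.50 with Thbs4 to 0.82 with Sparc.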

How the data were processed

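The deposited matrices hold raw counts (whole UMIs of a gene in a barcode) for barcodes that the authors had called as cells. Cell Ranger 3.0.2, FastQC and mm10 are named in the submitters' processing notes. Sample titles gave the groups. Cells needed 500 UMIs or more, 200 genes or more and no more than 20% of UMIs from mitochondrial genes. Doublets called by Scrublet (19 in C2D, 38 in S2D, 32 in C6W and 15 in S6W) were left out. In C2D this is 0.408% of cells, so removal by rank of score, at 0.8% per 1000 barcodes, was also tried.

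Counts were scaled to 10000 per cell, and 2000 variable genes without the 7 members, 40 principal components and 15 neighbours went into Leiden clustering at resolution 1 (scanpy 1.11.5). A cluster took a class name where its markers averaged a log2 fold of 1 or more and led the next class by 0.5 or more, 3 or more of them were raised, and its top 10 genes held no more markers of other classes than its own. The 35 clusters gave 33 named ones. Names mean marker-like, not lineage. UMIs were summed per class and library and scaled by TMM (edgeR 4.0.16). Ratios have exact conditional binomial intervals, levels Poisson and shares Clopper-Pearson ones. With 1 library a group there is no p-value: a gene with at least 20 UMIs over both libraries (100 for lists) in a class with at least 50 cells in each was called at 2-fold. A library with no UMI was set to 3 counts, which gives a bound, and a bound short of 2-fold was not called. The method was tested on simulated data. All 7 members are named, with up to 4 genes of each list by size of ratio and the 3 genes most like each member. Gene positions are from GENCODE vM21. The members and lists were chosen with earlier results of these data known.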

Additional observations from a re-analysis of the deposited data

Results flagged for a closer look

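The caerulein over saline ratio had opposite signs at the 2 recovery times for a few genes, with at least 1 of the 2 values past 2-fold. Each value is 1 library over 1 library, and the difference between the times was not tested. Sparc in fibroblast-like cells had a log2 ratio of 2.03 at 2 days and -0.19 at 6 weeks. Sparc in ductal-like cells had 1.24 at 2 days and -0.15 (-0.31 to 0.02) at 6 weeks, an interval that includes 0, and the 6-week value was 0.39 in thinned cells. Sparc in acinar-like cells, from few UMIs, had -0.50 (-1.05 to 0.07) at 2 days and 1.18 at 6 weeks. Its 2-day sign was not stable: the value was 1.15 with plain CPM, 1.04 with doublets kept, 1.21 with doublets by expected rate, 0.79 without the cell richest in the gene and 3.30 in thinned cells, so that both times were then positive. Thbs1 in macrophage-like cells had 1.70 at 2 days, and -0.04 without clusters of 1 library, and -0.24 (-0.58 to 0.11) at 6 weeks.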

How the results depend on the processing

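The count of 6 of 7 genes higher in C2D fibroblast-like cells was 5 or 6 under each alternative that gave a value. Without clusters of at least 90% 1 library, only 47 C2D cells were left, so that comparison has no value. The 6-week fibroblast-like count of 4 was 1 in cells thinned to 1000 UMIs and 2 without clusters of 1 library, where Thbs4 reversed to -0.071. The macrophage-like count of 3 at 2 days was 1 in thinned cells. Thbs1 in these cells reversed to -0.035 without clusters of 1 library, and Sparc to -0.53 with doublets kept. With S2D as the control of C6W, 1 gene was lower in macrophage-like cells. The ductal-like count of 3 at 2 days was 5 with no count minimum, and the count of 1 at 6 weeks was 0 in thinned cells, with doublets kept and with doublets by expected rate.

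In acinar-like cells at 2 days the count of 1 higher was 3 with plain CPM and with doublets kept, 2 with doublets by expected rate and without the cell richest in the gene, and 0 with a minimum of 100 UMIs, members in the clustering, resolution 2 or free RNA subtracted (1 lower there). At 6 weeks it was 2 with plain CPM, totals without digestive genes, doublets kept or free RNA subtracted, and 0 with a minimum of 100 UMIs, in thinned cells or without shared barcodes. The cause of these changes was not tested. Of 297 pairs of a called ratio and an alternative, 3 reversed and 16 fell under 2-fold. The alternatives without macrophage UMIs, without the richest cell and without shared barcodes were chosen after seeing the data. Mural-like and blood endothelial-like comparisons were not run, having under 50 cells in a library. No paired analysis was possible because each group is 1 library and the result comes from no test. Depth limits Cthrc1, Tnc and Thbs4 outside C2D, where most cells had no UMI.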
